A study of Mus musculus with 12 samples.

Results

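The 8 genes described here belong to Ret signalling at the tip of the ureteric bud, the branching epithelium that gives rise to the collecting system of the kidney, or, for Wnt9b, to the signals that the bud sends. They are Ret, Gfra1, Wnt11, Etv4, Etv5, Spry1, Sox9 and Wnt9b, chosen by name and found by symbol in the deposited counts, where they are 8 of 36186 genes. All 8 passed the filter on low counts in each of the 4 comparisons made.

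RNA came from whole kidneys of mouse embryos at E18.5, on a mixed strain background, with 3 libraries for each of 4 genotypes. The wild type libraries are Wt_30, Wt_37 and Wt_55 by their labels. AkCh_20, AkCh_31 and AkCh_33 are labelled Hoxa9,10,11-/- with HoxC9,10,11+/-, and AhCk_38, AhCk_110 and AhCk_115 are labelled Hoxa9,10,11+/- with HoxC9,10,11-/-. AkCk_24, AkCk_27 and AkCk_29 are labelled homozygous mutant for both clusters. The study's text describes its sequenced double mutants differently, as homozygous for Hoxa9 and Hoxa10 and all of Hoxc9, Hoxc10 and Hoxc11, with Hoxa11 either heterozygous or wild type. It also states that no kidney was seen at this age in embryos that lacked all 6 genes. The labels do not tell which AkCk library carries which Hoxa11 alleles, so the 3 libraries were treated as 1 group. Hoxd9, Hoxd10 and Hoxd11 are not mutated in any of the 4 genotypes by the labels, and the mutations are frameshifts in the germ line, so every cell of the embryo carries them. The AhCk libraries came from 1 sequencing run and the other 9 libraries from another. For AkCh and AhCk the text at hand does not say whether the 3 libraries are from separate animals, so their SE and adjusted p take each library as 1 replicate.

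Ret is a receptor tyrosine kinase of the bud tip, and Gdnf from the mesenchyme around the tip activates it together with the co-receptor Gfra1. The signal raises Etv4 and Etv5, transcription factors of the ETS family, and Wnt11, a ligand that helps to keep Gdnf expressed next to the tip, while Spry1 restrains the receptor. Sox9 is a transcription factor of the tip, and Wnt9b is a ligand of the bud epithelium that prompts the neighbouring progenitors to form nephrons.

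Levels are in CPM, which express counts relative to the total of the library, scaled by the trimmed mean of M-values (TMM), and are given in the order of the libraries above. Counts per library ranged from 28616877 to 47067903, with a median of 39328488. A floor of 3 counts corresponded to between 0.0637 and 0.105 CPM, which covers counting error only, as the reads carry no molecular identifiers. The lowest count of any of the 8 genes was 289, for Ret in AkCk_27, so each was measured far above this floor in all 12 libraries.

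AkCh_20 stood apart from the other libraries. It had the fewest counts, 28616877. Its log2 counts, not scaled to depth, had a median correlation across genes of 0.943 with the other AkCh libraries. That median was 0.964 to 0.988 for the other 11 libraries within their genotypes. The 10 most abundant genes of AkCh_20 took 5.23% of its counts, and its TMM factor was 0.905, the lowest of the 12. Defining markers of the differentiated kidney summed to 1613 CPM in AkCh_20, against 3501 and 3794 CPM in AkCh_31 and AkCh_33. AkCh_20 also had the highest level among the AkCh libraries of Ret, Wnt11, Etv4, Etv5, Spry1 and Sox9 and the lowest of Wnt9b, so the main results that use it are given with and without it. The overlaps, orders, correlations and gene lists without it were added after seeing the data.

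The libraries also differ in Xist, the transcript of the inactive X chromosome. Xist lay between 0.0386 and 0.138 CPM in all 3 Wt libraries, AkCh_20, AhCk_38, AhCk_115 and AkCk_24. It was 190 and 253 CPM in AkCh_31 and AkCh_33, 336 CPM in AhCk_110, and 72.6 and 60.1 CPM in AkCk_27 and AkCk_29. Genotype and Xist level therefore overlap only in part, and no Wt library is high in Xist. The fits with Xist as a covariate used the 9 libraries of 1 run, or all 12 libraries for AhCk against Wt, so they change the libraries as well and are to be read against the fits on the same libraries without Xist.

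Transcripts of the 6 targeted genes were present in every library. Hoxa9 stood at 24.3, 24.3 and 26.4 CPM in Wt, 40.8, 26.7 and 27.1 in AkCh, 29.6, 32.0 and 30.9 in AhCk, and 26.5, 25.9 and 23.96 in AkCk. Hoxa10 stood at 125.4, 152.0 and 164.5 CPM in Wt, 153.3, 103.4 and 107.0 in AkCh, 112.7, 103.7 and 114.1 in AhCk, and 100.3, 103.6 and 111.6 in AkCk. Hoxa11 stood at 44.2, 52.7 and 59.7 CPM in Wt, 43.2, 51.8 and 52.2 in AkCh, 53.9, 61.5 and 52.8 in AhCk, and 37.1, 38.2 and 52.9 in AkCk. Of these, Hoxa10 was lower in all 3 AkCk libraries than in any Wt library, while Hoxa9 and Hoxa11 overlapped. Hoxc9 stood at 11.4, 11.7 and 15.6 CPM in Wt, 32.7, 11.7 and 12.6 in AkCh, 9.16, 11.0 and 13.9 in AhCk, and 11.1, 10.5 and 10.4 in AkCk. Hoxc10 stood at 50.2, 58.8 and 66.9 CPM in Wt, 120.7, 45.3 and 41.6 in AkCh, 32.1, 36.6 and 51.6 in AhCk, and 37.8, 29.1 and 35.8 in AkCk. Hoxc11 stood at 1.56, 1.59 and 1.83 CPM in Wt, 2.94, 1.57 and 1.32 in AkCh, 1.116, 1.49 and 2.01 in AhCk, and 1.04, 0.892 and 1.24 in AkCk. All 3 Hoxc genes were lower in every AkCk library than in any Wt library, and all 3 were highest in AkCh_20.

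Between AkCk and Wt, 2 of the 6 targeted genes passed the test and 4 did not, where 13.7% of all genes passed, and 4 of the 6 lay lower in every AkCk library, where 20.8% of all genes did. Hoxc10 fell by 0.78 on the log2 scale (SE 0.14, edgeR adjusted p = 0.0127), and Hoxa10 fell by 0.49 (SE 0.11, edgeR adjusted p = 0.0270). In the other 3 comparisons 0 of the 6 passed by edgeR, with 0, 3 and 0 at an unadjusted p below 0.05 in AkCh against Wt, AhCk against Wt and AkCk against AkCh, against 360 of 15789, 3349 of 15902 and 1787 of 15764 genes. Without AkCh_20 again 0 of the 6 passed in AkCh against Wt and in AkCk against AkCh. Of the 6, 2 and 1 then had an unadjusted p below 0.05, against 1812 of 15967 and 3739 of 15986 genes. A frameshift allele can still be transcribed, so these levels do not check the genotype labels.

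The genes lie on 6 chromosomes of build GRCm38.p6 in the RefSeq annotation. Ret (Entrez 19713) lies at chr6:118151748-118197744, Gfra1 (14585) at chr19:58235581-58455946 and Wnt11 (22411) at chr7:98835084-98854747. Etv4 (18612) lies at chr11:101769747-101785310, Etv5 (104156) at chr16:22381313-22439570 and Spry1 (24063) at chr3:37639947-37644599. Sox9 (20682) at chr11:112782210-112787757 and Wnt9b (22412) at chr11:103727362-103775272 share chromosome 11 with Etv4. Other annotated genes overlap 3 of the 8. Gm46650 and Gm10007 overlap Gfra1, where the first had no match in the counts and the second was at 0 CPM. Gm33770 overlaps Wnt11 and had no match in the counts, and Wnt3 overlaps Wnt9b with a mean of 0.0435 CPM.

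RefSeq promoters, from 250 bases before to 50 after an annotated start, were at hand for 5 of the 8 genes, 7 promoters in all, and Ret, Etv4 and Sox9 had no entry. Those of Wnt11, Etv5 and Wnt9b are shown because these genes fell past the threshold in AkCk, as Ret did, and where Wnt11 and Etv5 have 2 entries the one further upstream is shown. Each is printed up to 30 bases past its start, 5′ to 3′ on the strand of the gene, and the capitals mark those 30 transcribed bases. They lie in GRCm38.p6 at chr7:98834862-98835141 on the plus strand for Wnt11, chr16:22439541-22439820 on the minus strand for Etv5 and chr11:103749792-103750071 on the minus strand for Wnt9b.
Wnt11: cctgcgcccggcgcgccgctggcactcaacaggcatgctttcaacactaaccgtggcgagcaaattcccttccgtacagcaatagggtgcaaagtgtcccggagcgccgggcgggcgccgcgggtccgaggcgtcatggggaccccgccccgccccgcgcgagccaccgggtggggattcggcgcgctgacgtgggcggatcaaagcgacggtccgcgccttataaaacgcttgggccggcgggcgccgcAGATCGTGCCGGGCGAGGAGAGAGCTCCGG
Etv5: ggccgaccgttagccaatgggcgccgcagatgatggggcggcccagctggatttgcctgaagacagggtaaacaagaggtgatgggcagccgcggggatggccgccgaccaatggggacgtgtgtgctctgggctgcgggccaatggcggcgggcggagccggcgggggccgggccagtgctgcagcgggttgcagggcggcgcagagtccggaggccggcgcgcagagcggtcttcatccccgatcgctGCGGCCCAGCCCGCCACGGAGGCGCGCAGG
Wnt9b: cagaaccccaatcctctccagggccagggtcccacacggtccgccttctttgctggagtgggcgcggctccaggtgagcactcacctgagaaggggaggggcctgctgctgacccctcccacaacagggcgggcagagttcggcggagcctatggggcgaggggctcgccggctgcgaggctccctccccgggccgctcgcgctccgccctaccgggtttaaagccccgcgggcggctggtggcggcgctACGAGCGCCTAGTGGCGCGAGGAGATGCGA

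The 7 promoters had between 54.0%, for Gfra1, and 74.0% of bases as G or C, against a median of 52.7% over 32851 promoters, and held 12 to 45 CpG pairs against a median of 7. A motif of ETS factors, CCGGAAG, and the posterior Hox motifs TTTATNG and TTTACNA, of which the last pair begins with the same 4 letters, were searched on both strands. Of all 32851 promoters, 8.86% held CCGGAAG, 10.9% held TTTATNG and 8.70% held TTTACNA. None of the 3 motifs occurred in the 7 promoters of these genes, which says only that these letters are not in these windows.

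The comparison of AkCk with Wt asks how RNA levels of the 8 genes differ in kidneys with Hoxa and Hoxc genes mutated together. By the study's text these kidneys may keep wild type Hoxa11 alleles. Of the 8 genes, 5 fell past the threshold and 0 rose. The 5 were the receptor Ret, the ligands Wnt11 and Wnt9b, and the transcription factors Etv4 and Etv5. Over all 15839 genes tested, 13.7% passed, 7.40% as lower and 6.31% as higher, or 1172 lower and 999 higher, and with scaling by library size alone 1649 were lower and 742 higher. All 3 AkCk libraries lay below all 3 Wt libraries for 8 of the 8 genes, as they did for 20.8% of all genes. The median log2 fold change was -0.63 over the 8 genes and -0.01 over all genes.

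Ret, the receptor, stood at 36.5, 39.0 and 41.0 CPM in Wt, 42.0, 29.9 and 28.6 in AkCh, 24.02, 29.3 and 27.4 in AhCk, and 9.59, 7.36 and 17.3 in AkCk. All 3 AkCk libraries were far below the other 9, and the highest of them was below the lowest AhCk library. Ret fell by 1.77 on the log2 scale in AkCk against Wt (SE 0.28, edgeR adjusted p = 0.00958, lower in 3 of 3 libraries), from a mean of 38.9 ± 2.27 CPM (SD, n = 3) to 11.4 ± 5.24 CPM (SD, n = 3). In bulk RNA, fewer tip cells and less Ret RNA per cell cannot be told apart. Ret stayed past the threshold without each of the 6 libraries in turn, with log2 fold changes from -2.20 to -1.53 and adjusted p up to 0.0418. Among the libraries low in Xist, Ret was 9.59 CPM in AkCk_24 and 36.5 to 41.0 CPM in Wt.

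Gfra1, the co-receptor that presents Gdnf to Ret, stood at 64.7, 82.3 and 65.4 CPM in Wt, 72.1, 86.4 and 54.3 in AkCh, 68.7, 73.4 and 85.6 in AhCk, and 51.0, 31.9 and 52.9 in AkCk. The AkCk libraries were the 3 lowest of the 12, but AkCk_29 and AkCh_33 nearly met. The log2 fold change of AkCk against Wt was -0.65 (SE 0.19, edgeR adjusted p = 0.0625), which did not pass. It passed with DESeq2 (adjusted p = 0.0101) and with scaling by library size alone (adjusted p = 0.0462), and it did not pass without any of the 6 libraries.

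Wnt11, the tip ligand whose promoter is printed above, stood at 38.5, 53.2 and 53.6 CPM in Wt, 52.7, 38.5 and 37.8 in AkCh, 35.6, 46.0 and 44.4 in AhCk, and 18.7, 22.4 and 28.2 in AkCk. The AkCk libraries were again below the other 9, which spread over a common range. Wnt11 fell by 1.07 on the log2 scale in AkCk against Wt (SE 0.18, edgeR adjusted p = 0.0114, lower in 3 of 3 libraries), from 48.4 ± 8.58 to 23.1 ± 4.79 CPM (SD, n = 3 each). Without Wt_37 its adjusted p was 0.0555, and with Xist as a covariate 0.0645 at a log2 fold change of -1.002, where the same 9 libraries without Xist gave 0.0242 at -1.07.

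Etv4, a transcription factor raised by Ret signalling, stood at 37.9, 45.6 and 48.8 CPM in Wt, 70.2, 33.9 and 33.2 in AkCh, 29.1, 38.1 and 37.9 in AhCk, and 23.6, 14.01 and 27.8 in AkCk. AkCk was lowest, and AkCh_20 had the highest value of the 12 by a wide margin. Etv4 fell by 1.02 on the log2 scale in AkCk against Wt (SE 0.23, edgeR adjusted p = 0.0293, lower in 3 of 3 libraries). The call was lost without Wt_37 (adjusted p = 0.103), Wt_55 (0.0996) or AkCk_24 (0.0755). It was also lost with all 12 libraries in the fit (0.0744), with the 9 libraries of 1 run (0.134) and with limma on the deposited log2 values (0.0686). In the same 9 libraries Etv4 had a log2 fold change of -1.02, and of -0.59 with Xist added (adjusted p = 0.289).

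Etv5, the partner of Etv4 in the same response, stood at 87.9, 105.5 and 101.0 CPM in Wt, 118.1, 94.1 and 87.9 in AkCh, 79.7, 86.7 and 95.0 in AhCk, and 69.9, 48.8 and 76.0 in AkCk. The AkCk libraries were the 3 lowest, though AkCk_29 lay close to AhCk_38. Etv5 fell by 0.60 on the log2 scale in AkCk against Wt (SE 0.16, edgeR adjusted p = 0.0465, lower in 3 of 3 libraries). The call was lost without Wt_37 (adjusted p = 0.158), Wt_55 (0.137), AkCk_24 (0.0966) or AkCk_27 (0.0521). It was lost as well with the study's filter on expression level as recomputed here (0.0505), all 12 libraries (0.0544) and the 9 libraries of 1 run (0.107). The same held for limma (0.0987) and the 9 libraries with Xist as a covariate (0.220).

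Spry1, the feedback inhibitor of the receptor, stood at 95.0, 103.4 and 109.2 CPM in Wt, 145.9, 99.2 and 97.4 in AkCh, 93.0, 97.9 and 116.3 in AhCk, and 73.8, 76.7 and 90.9 in AkCk. AkCk_29 was just under AhCk_38 and Wt_30, so the gap between the groups was small. The log2 fold change of AkCk against Wt was -0.35 (SE 0.10, edgeR adjusted p = 0.0520), which did not pass. It passed without Wt_30 (adjusted p = 0.0351) or AkCk_29 (0.0288), with DESeq2 (0.0237) and with library size alone (0.0340). It was -0.35 in the 9 libraries of 1 run and -0.18 with Xist added to that fit.

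Sox9 stood at 30.6, 35.8 and 37.6 CPM in Wt, 67.9, 35.9 and 29.6 in AkCh, 29.5, 36.4 and 38.4 in AhCk, and 23.3, 17.7 and 28.1 in AkCk. As for Etv4, AkCh_20 was far above every other library and AkCk was lowest. The log2 fold change of AkCk against Wt was -0.59 (SE 0.17, edgeR adjusted p = 0.0547), which did not pass. It passed without Wt_30 (adjusted p = 0.0394) or AkCk_29 (0.0307), with DESeq2 (0.0103) and with library size alone (0.0402). It was -0.59 in the 9 libraries of 1 run and -0.19 with Xist added to that fit.

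Wnt9b, the inducer of nephron formation, stood at 36.1, 32.0 and 40.2 CPM in Wt, 24.03, 33 and 35.6 in AkCh, 40.9, 35.2 and 29.4 in AhCk, and 21.6, 21.7 and 28.0 in AkCk. AkCk was below Wt and AhCk throughout, while AkCh_20 fell within the AkCk range. Wnt9b fell by 0.61 on the log2 scale in AkCk against Wt (SE 0.13, edgeR adjusted p = 0.0277, lower in 3 of 3 libraries). The call was lost without Wt_37 (adjusted p = 0.0605), Wt_55 (0.0998), AkCk_24 (0.0916) or AkCk_27 (0.0802). It was also lost with all 12 libraries (0.0656), the 9 libraries of 1 run (0.0962) and limma (0.0615), and it was kept with Xist added to those 9 libraries (log2 fold change -0.82, adjusted p = 0.0309).

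**Figure D1:**
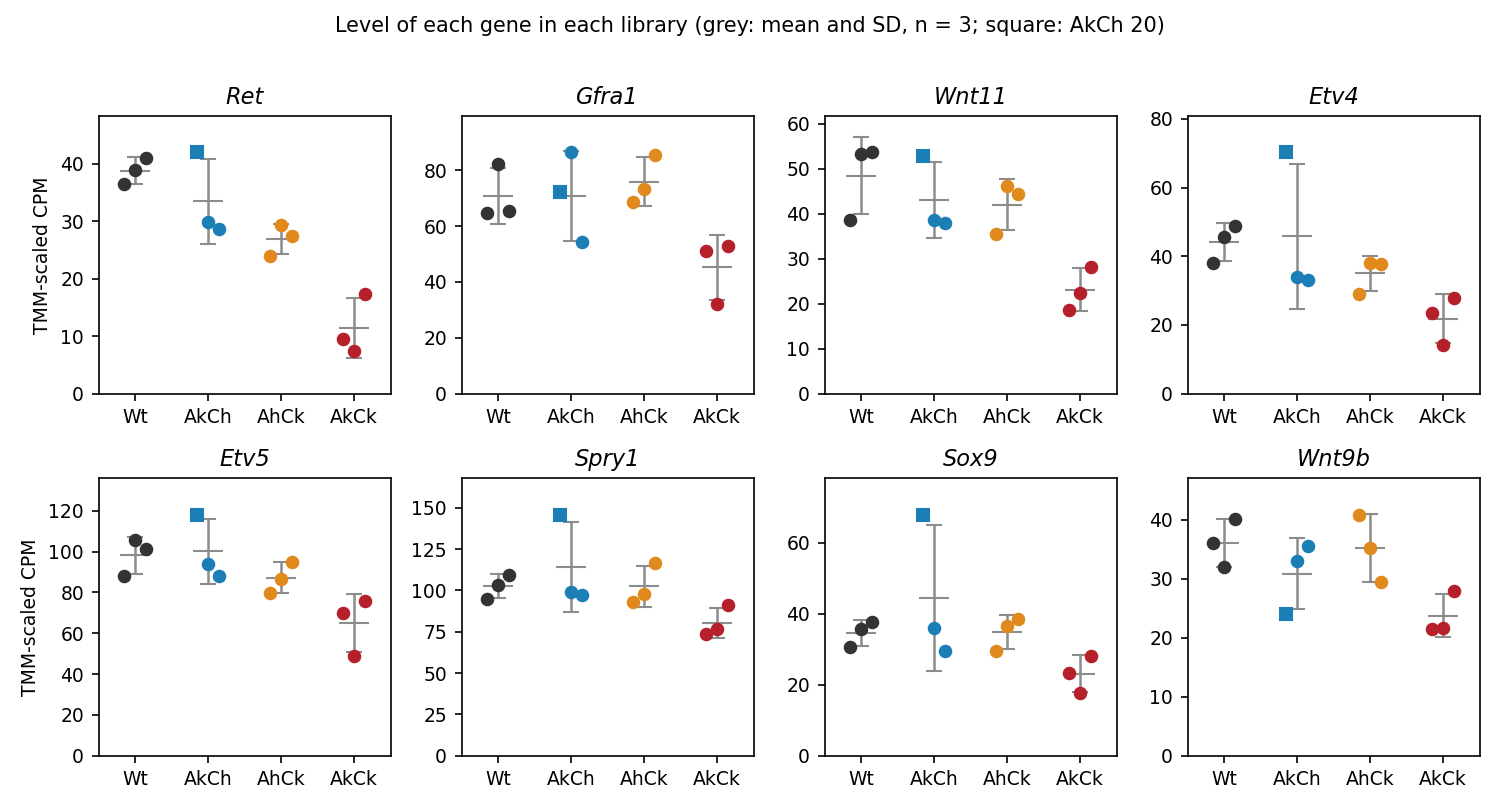
Level of each of the 8 genes in TMM-scaled CPM (vertical axis) in the 12 libraries by genotype (horizontal axis); grey bars are the mean and SD of 3 libraries and the square is AkCh_20. Ret lies between 7.36 and 17.3 CPM in AkCk and between 24.02 and 42.0 CPM in the other 9 libraries, and AkCh_20 is highest of all for Ret, Etv4, Etv5, Spry1 and Sox9.

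Spread within AkCk was wide for Ret, whose SD was 45.8% of its mean there and 5.85% in Wt. AkCk_29 was the highest AkCk library for 8 of the 8 genes, and AkCk_27 the lowest for Ret, Gfra1, Etv4, Etv5 and Sox9. The number of the 8 genes past the threshold followed the libraries used. It was 7 without Wt_30 or without AkCk_29, 3 without AkCk_27, 2 without Wt_55 or AkCk_24, and 1, Ret, without Wt_37. The count over all genes moved too, from 535 without Wt_37 and 633 without Wt_55 to 3386 without Wt_30, with 793 without AkCk_24 and 1101 without AkCk_27, against 2171 with all 6. The study's own filter asks for more than 10 reads per kilobase of exon, scaled to depth, in 3 libraries or more. It was recomputed here from the deposited counts and GENCODE exon lengths, which may differ from the study's values. In this form it does not retain Ret, Sox9 or Wnt9b, so the corresponding test covers 5 of the 8 genes.

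Per kilobase of exon, Spry1 was the most abundant of the 8 genes in Wt, with 35.3 ± 2.46 CPM per kilobase (SD, n = 3), followed by Etv5 with 23.9 ± 2.23. Etv4 at 14.2, Gfra1 at 12.9 and Wnt11 at 11.7 CPM per kilobase overlapped as neighbours in this order. Sox9 at 8.38 and Wnt9b at 7.99 overlapped as well, and Ret was lowest at 5.74 ± 0.336 CPM per kilobase, without overlap with Wnt9b. In AkCk, Spry1 at 27.7 and Etv5 at 15.8 CPM per kilobase again led without overlap, and Ret was again lowest at 1.69 CPM per kilobase without overlap. Between them, Gfra1 (8.27), Etv4 (7.03), Wnt11 (5.58), Sox9 (5.57) and Wnt9b (5.25 CPM per kilobase) each overlapped with the next. In AhCk the order of means was Spry1, Etv5, Gfra1, Etv4, Wnt11, Sox9, Wnt9b and Ret, from 35.2 to 3.98 CPM per kilobase, with overlap between neighbours from Etv4 to Wnt9b. In AkCh it was Spry1, Etv5, Etv4, Gfra1, Sox9, Wnt11, Wnt9b and Ret, from 39.3 to 4.95 CPM per kilobase, and neighbours from Etv5 to Wnt11 overlapped, as did Wnt9b and Ret. Without AkCh_20 the AkCh order was Spry1, Etv5, Gfra1, Etv4, Wnt11, Sox9, Wnt9b and Ret, from 33.8 to 4.32 CPM per kilobase, and only Gfra1 with Etv4 and Sox9 with Wnt9b overlapped.

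AkCh against Wt asks what loss of the Hoxa genes does while 1 set of Hoxc alleles remains wild type. Of the 8 genes, 0 passed the threshold by edgeR, 0 had an unadjusted p below 0.05, and the AkCh and Wt libraries overlapped for 8 of the 8. Over all 15789 genes, 0% passed and 360 had an unadjusted p below 0.05, while 8.35% did not overlap between the groups. DESeq2 called 22 genes and limma 1, and by either tool 0 of the 8 genes passed. The log2 fold changes ran from -0.22 (SE 0.18) for Wnt9b to 0.36 (SE 0.32) for Sox9, all with an edgeR adjusted p of 0.9999, and the median was 0.02, against 0.03 over all genes.

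Without AkCh_20 the values of AkCh against Wt turned for 5 of the 8 genes, though none passed. Etv4 went from 0.05 (SE 0.32) to -0.40, Sox9 from 0.36 to -0.09, Spry1 from 0.16 to -0.07, Etv5 from 0.03 to -0.11 and Gfra1 from 0.004 to -0.01 on the log2 scale. Ret went from -0.21 to -0.41 and Wnt11 from -0.17 to -0.35, with adjusted p of 0.422 and 0.431. Wnt9b went from -0.22 to -0.08. Gfra1 also turned without Wt_30 (-0.06), Wt_55 (-0.05) or AkCh_31 (-0.16), and Etv4 and Etv5 turned without Wt_30 (both -0.05). With library size alone Gfra1, Etv4 and Etv5 were at -0.08, -0.05 and -0.06, and with limma Gfra1 and Etv4 were at -0.01 and -0.03. In the 9 libraries of 1 run Etv4 was at 0.05, Etv5 at 0.03, Spry1 at 0.15, Sox9 at 0.36, Wnt9b at -0.22 and Ret at -0.21. With Xist added to that fit they were at 0.44, 0.21, 0.31, 0.70, -0.48 and -0.11, and none passed. Over all genes, 8 passed by edgeR without AkCh_20. Ret, Wnt11 and Etv4 then lay lower in both AkCh libraries than in any Wt library, 3 of the 8 genes, where 17.0% of all genes were so separated to the lower side.

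AhCk against Wt asks the reverse, with the Hoxc genes lost and 1 set of Hoxa alleles kept. Ret was the only gene of the 8 to pass, 1 of 8, where 2.36% of all 15902 genes passed and 1.53% passed as lower. Its AhCk values of 24.02, 29.3 and 27.4 CPM lay below the Wt values of 36.5 to 41.0 CPM in 3 of 3 libraries, and such a separation to the lower side held for 15.3% of all genes. Ret fell by 0.52 on the log2 scale (SE 0.10, edgeR adjusted p = 0.0435). The call was kept without Wt_30 (adjusted p = 0.0399) and lost without each of the other 5 libraries, at 0.203 without Wt_37, 0.165 without Wt_55, 0.0594 without AhCk_38, 0.114 without AhCk_110 and 0.121 without AhCk_115. It was also lost with library size alone (0.0511), limma (0.0981), all 12 libraries (0.5004) and the same 12 with Xist added (0.647). It was kept with DESeq2 (0.000407), RLE factors (0.0431) and all genes with a count (0.0451), while the log2 fold change stayed between -0.59 and -0.46 in every alternative run. All AhCk libraries come from 1 sequencing run and all Wt libraries from the other, so genotype and run cannot be told apart here.

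The other 7 genes overlapped between AhCk and Wt and did not pass. Etv4 had a log2 fold change of -0.32 (SE 0.14, adjusted p = 0.234), Wnt11 of -0.19 and Etv5 of -0.16. Gfra1 was at 0.11, Spry1 at 0.01, Sox9 at 0.02 and Wnt9b at -0.03 on the log2 scale. Leaving out 1 library moved Gfra1 from 0.01 without AhCk_115 to 0.23 without Wt_37, Wnt11 from -0.35 without Wt_30 to -0.10 without AhCk_38, and Etv5 from -0.25 without Wt_30 to -0.11 without Wt_37. Etv4 was at -0.33 with all 12 libraries and at -0.18 with Xist added. The signs of Spry1, Sox9 and Wnt9b turned when some libraries were left out. Spry1 was -0.05 without Wt_30 and -0.09 without AhCk_115, Sox9 was -0.08 without Wt_30, -0.02 without AhCk_110 and -0.06 without AhCk_115, and Wnt9b was 0.05 without Wt_55 and 0.08 without AhCk_115. The count of all genes past the threshold was 376, and it was 60 without Wt_37, 70 without Wt_55, 63 without AhCk_110 and 99 without AhCk_115. The 3 comparisons with Wt share the same Wt libraries, so their values are not independent of each other. Whether Ret differed more in AkCk than in AhCk was not tested.

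AkCk against AkCh compares groups that differ in Hoxc alleles by their labels. By the study's text the AkCk kidneys may also keep wild type Hoxa11 alleles that AkCh lacks, so the doses of Hoxa11 and Hoxc cannot be told apart here. Of the 8 genes, 0 passed by edgeR, as did 0% of all 15764 genes, with 1787 genes at an unadjusted p below 0.05. The AkCk libraries lay below all AkCh libraries for 7 of the 8 genes, where 13.1% of all genes were so separated, and the same 7 had an unadjusted p below 0.05. The exception was Wnt9b. Ret had a log2 fold change of -1.53 (SE 0.35, edgeR adjusted p = 0.224), Etv4 of -1.05 (SE 0.38), Sox9 of -0.93 (SE 0.35) and Wnt11 of -0.88 (SE 0.21). Those of Gfra1, Etv5 and Spry1 were -0.63, -0.61 and -0.49, and that of Wnt9b was -0.36 (SE 0.19). The median was -0.76 over the 8 genes and -0.01 over all genes.

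Other tools called more in AkCk against AkCh. DESeq2 called 554 genes and limma 1, and of the 8 genes DESeq2 called Ret (adjusted p = 0.00227) and Wnt11 (0.0152). With all 12 libraries in the edgeR fit 540 genes passed, Ret (0.0158) and Wnt11 (0.0351) among them, while the 9 libraries of 1 run gave 181 genes and 0 of the 8. With Xist added to those 9 libraries 701 genes passed, with Ret (0.0323) among them. Without AkCh_20, 687 genes passed by edgeR and 0 of the 8, with Ret at -1.33 (adjusted p = 0.0701) and Wnt11 at -0.70 (0.0659). Etv4 then stood at -0.60, Sox9 at -0.48 and Spry1 at -0.27, each less than 0.7 of its size with AkCh_20. Gfra1 was at -0.62, Etv5 at -0.47 and Wnt9b at -0.51. All 8 genes, Wnt9b included, then lay lower in every AkCk library than in both AkCh libraries, as did 25.0% of all genes.

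**Figure D2:**
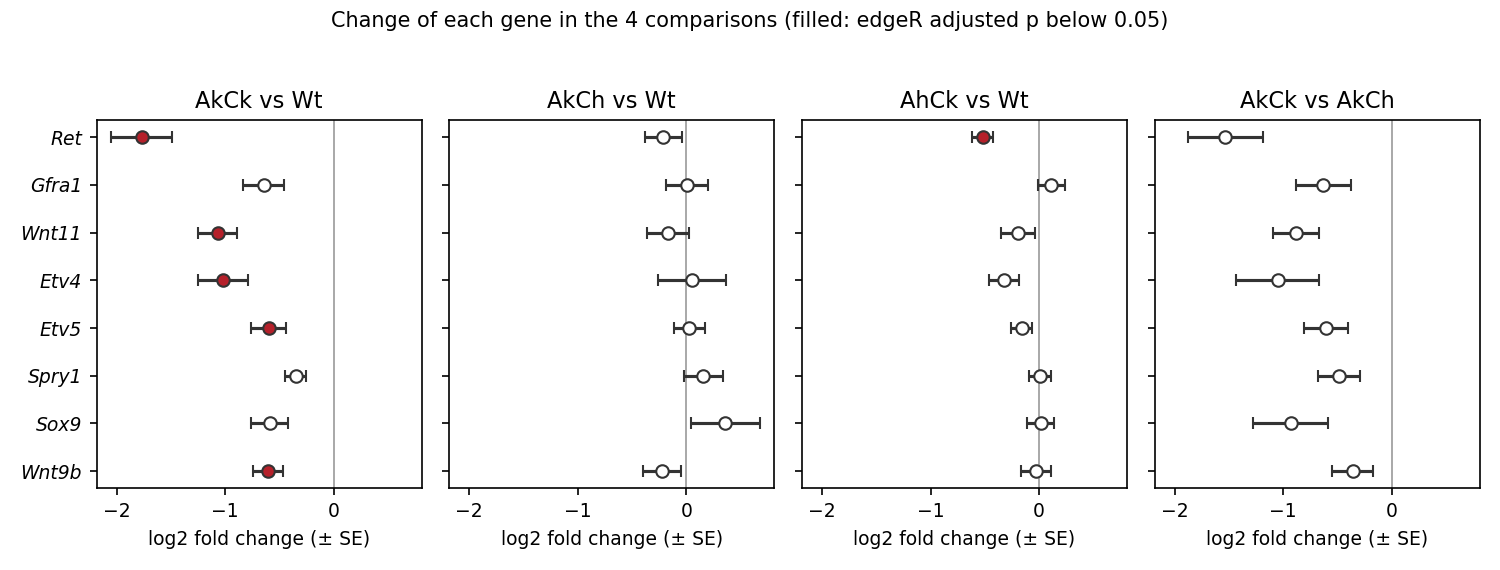
Log2 fold change (horizontal axis) with SE of each of the 8 genes (vertical axis) in the 4 comparisons, each fitted on 6 libraries; filled points have an edgeR adjusted p below 0.05. In AkCk against Wt all 8 lie left of 0, from -1.77 for Ret to -0.35 for Spry1, and in AhCk against Wt only Ret is filled.

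Gdnf, the ligand of Ret made by the mesenchyme, stood at 29.8, 35.2 and 39.8 CPM in Wt, 65.6, 31.9 and 26.7 in AkCh, 24.7, 31.5 and 33.1 in AhCk, and 10.6, 6.29 and 14.8 in AkCk. It was lowest in the 3 AkCk libraries and highest in AkCh_20, as Ret and Etv4 were. In AkCk against Wt it fell by 1.73 on the log2 scale (SE 0.28, edgeR adjusted p = 0.0101). Of 7 ligands and co-receptors of this receptor family, Gdnf among them, 2 rose, 1 fell and 4 did not pass, with a median log2 fold change of 0.12. Those that rose were co-receptors for other ligands. Gfra2, which binds Nrtn, rose by 1.60 (SE 0.24, adjusted p = 0.00778), from 9.67 to 29.4 CPM. Gfra3, which binds Artn, rose by 1.59 (SE 0.30, adjusted p = 0.0164), from 0.399 to 1.22 CPM.

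Genes that carry the signal inside the cell passed about as often as all genes, of which 13.7% did. Of 17 adaptors, kinases and other transducers downstream of Ret, 2 rose, 1 fell and 14 did not pass, with a median of 0.13. Dok5, a docking protein that binds Ret, rose by 1.61 (SE 0.36, adjusted p = 0.0286) at a low level of 0.404 to 1.24 CPM. Pik3r1, a regulatory subunit of phosphoinositide 3-kinase, rose by 0.40 (SE 0.09, adjusted p = 0.0255), and Plcg1, a phospholipase, fell by 0.30 (SE 0.06, adjusted p = 0.0245). Of 9 measured feedback inhibitors of receptor tyrosine kinases, 1 fell and 8 did not pass, with a median of -0.25, and Spry3 had no match in the counts. Spred2 fell by 0.52 (SE 0.11, adjusted p = 0.0253). Dusp6, a phosphatase of the downstream kinases and the most abundant of this list, had a log2 fold change of -0.25 (SE 0.08, adjusted p = 0.0653).

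Of 9 other genes enriched in the tip or dependent on Ret or its Etv targets, 4 fell, 0 rose and 5 did not pass, with a median of -0.70. Myb fell by 0.95 (SE 0.20, adjusted p = 0.0230), Slco4c1 fell by 0.75 (SE 0.17, adjusted p = 0.0298) and Cxcr4, a chemokine receptor, fell by 0.70 (SE 0.14, adjusted p = 0.0188). The summed level of the 9 genes differed less, from 335.5 to 363.9 CPM in Wt and from 334.5 to 374.9 CPM in AkCk, because Mmp14, at a mean of 176.0 CPM, made up much of it and had a log2 fold change of 0.10.

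Of 8 regulators of transcription in the bud epithelium that act upstream of Ret, 4 fell and 4 did not pass, with a median of -0.55. Sall1 fell by 0.68 (SE 0.17, adjusted p = 0.0368), Gata3 fell by 0.65 (SE 0.11, adjusted p = 0.0114), Emx2 fell by 0.55 (SE 0.09, adjusted p = 0.0117) and Lhx1 fell by 0.55 (SE 0.13, adjusted p = 0.0330). Of these, Sall1 and Lhx1 are also expressed in the mesenchyme and early nephrons. Of 17 genes around the bud that promote or restrain Gdnf or budding, 1 rose, 0 fell and 16 did not pass, with a median of -0.09. Fgf7, a growth factor of the stroma, was at 0.198 to 0.438 CPM in Wt and had a mean of 2.19 CPM in AkCk. It met the filter on low counts only with AkCk libraries counted. Its call rests partly on that filter, so no fold is given. Npnt, the most abundant of these genes, had a log2 fold change of 0.31 (SE 0.24, adjusted p = 0.402), and Aldh1a2, an enzyme of retinoic acid synthesis, of -0.43 (SE 0.18, adjusted p = 0.139).

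Of 11 genes of the response to Wnt9b and Wnt11 and other ureteric Wnt ligands, 4 fell and 7 did not pass, with a median of -0.55. Axin2, a general target of canonical Wnt signalling, stood at 31.5, 32.1 and 34.2 CPM in Wt, 34.4, 31.3 and 26.3 in AkCh, 35.9, 32.3 and 34.9 in AhCk, and 17.6, 20.5 and 22.5 in AkCk. AkCk alone was low, and AkCh_20 did not stand out. Axin2 fell by 0.69 (SE 0.11, adjusted p = 0.00882). Lef1, a transcription factor of the same pathway, fell by 0.75 (SE 0.16, adjusted p = 0.0249), and the list also holds Lhx1, given above, and Cited1, a progenitor gene, with a log2 fold change of -1.45 (SE 0.34, adjusted p = 0.0327). Tafa5 was matched through its older symbol Fam19a5.

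**Figure D3:**
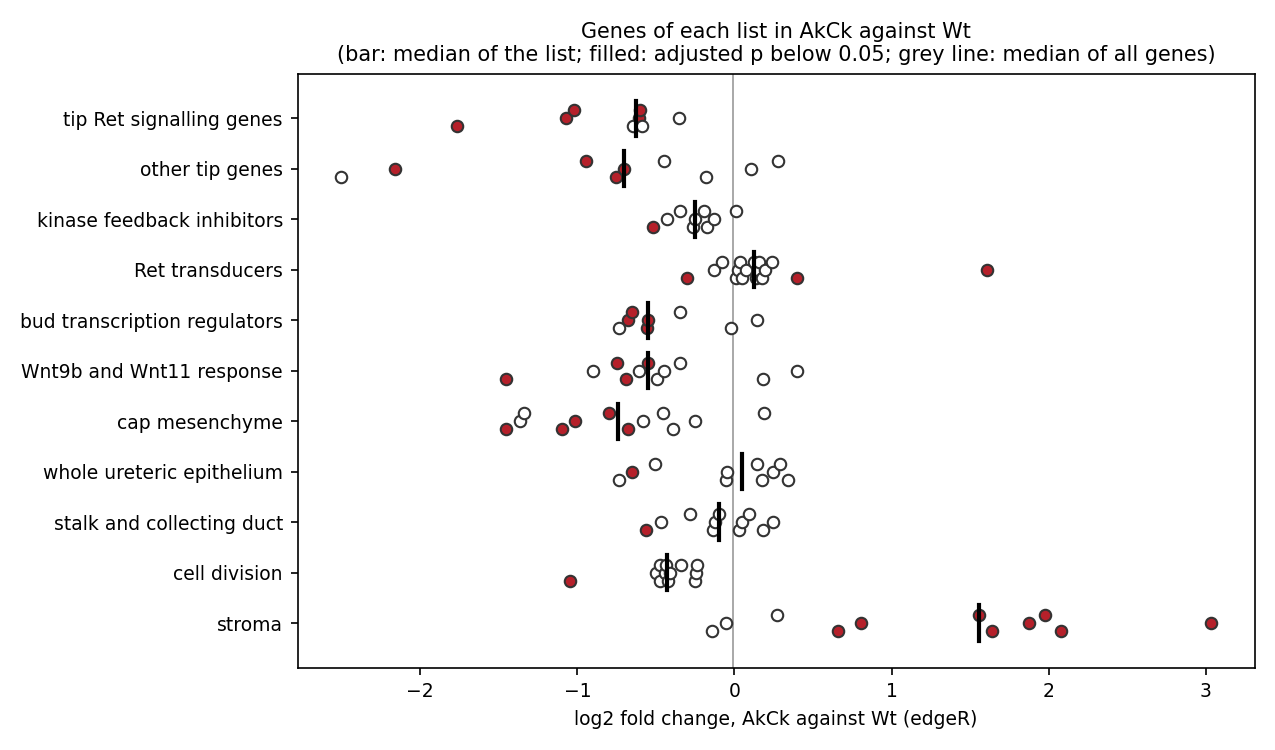
Log2 fold change (horizontal axis, edgeR) in AkCk against Wt of each gene of 11 lists (vertical axis); bars are list medians, filled points have an adjusted p below 0.05 and the grey line is the median of all genes. The lists of tip, bud regulator, Wnt response and cap mesenchyme genes have medians from -0.74 to -0.55, and those of whole ureteric epithelium and collecting duct 0.05 and -0.10.

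Genes of the whole ureteric epithelium were not low as a list. Of 10 genes of tip and stalk, 1 fell and 9 did not pass, with a median of 0.05. Their summed level was 2259, 2033 and 2071 CPM in Wt, 1697, 2205 and 2176 in AkCh, 2208, 2102 and 1840 in AhCk, and 2040, 2438 and 2274 in AkCk. The AkCk sums thus lay within and above the Wt range. The gene that fell was Gata3, and the most abundant were Cdh16, with a mean of 776.3 CPM and a log2 fold change of 0.24 (SE 0.14, adjusted p = 0.266), and Cdh1, with 0.18 (SE 0.09, adjusted p = 0.203). Cdh16 is also expressed in nephron tubules. Of 11 genes of the stalk and collecting duct, 1 fell and 10 did not pass, with a median of -0.10. Elf5, a collecting duct transcription factor, fell by 0.56 (SE 0.14, adjusted p = 0.0347). Tfcp2l1, the most abundant at a mean of 456.8 CPM, had a log2 fold change of 0.24, and Aqp2, the water channel, of -0.10.

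Other lists cover further cells of the kidney in AkCk against Wt. Of 12 nephron progenitor genes of the cap mesenchyme, 5 fell and 7 did not pass, with a median of -0.74. Tmem100 fell by 1.10, Crym fell by 1.02 and Meox1 fell by 0.80, with adjusted p of 0.0144, 0.0327 and 0.0246, besides Cited1 and Sall1. The summed level of the list was 600.0 to 759.3 CPM in Wt, 609.7 to 909.4 in AkCh, 566.0 to 655.6 in AhCk and 318.6 to 534.5 in AkCk, and its most abundant gene was Itga8, with a mean of 193.8 CPM. Of 10 early nephron genes, 1 fell, Lhx1, and 9 did not pass, with a median of -0.32. On the log2 scale its most abundant gene, Ccnd1, was at -0.21 (adjusted p = 0.290), and Jag1, a Notch ligand, was at -0.22 (adjusted p = 0.141). The 11 defining markers of the differentiated kidney summed to at least 1613 CPM in every library, with a median log2 fold change of 0.45. Lrp2 and Slc12a1, of nephron tubules, had log2 fold changes of 0.55 and 0.63 with adjusted p of 0.261 and 0.109.

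Cell division genes and stromal genes were looked at beside the tip genes. Of 12 cell division genes, 1 fell and 11 did not pass, with a median of -0.43 and 12 of 12 below 0. Mki67 fell by 1.05 (SE 0.10, adjusted p = 0.00173), and Top2a, the most abundant, was at -0.44 on the log2 scale (adjusted p = 0.0924). Their summed level was 1599, 1804 and 1808 CPM in Wt, 2375, 1607 and 1524 in AkCh, 1271, 1745 and 1800 in AhCk, and 1356, 950.6 and 1442 in AkCk. AkCh_20 was highest, as for Etv4 and Sox9, and AkCk_27 lowest. Of 11 stromal genes, 8 rose and 3 did not pass, with a median of 1.56. Lum rose by 3.04, Dcn by 2.08, Postn by 1.98 and Col1a1 by 1.88, with adjusted p up to 0.000919. The list summed to 3309, 3460 and 3256 CPM in Wt, 4608, 4585 and 3573 in AkCh, 4134, 5083 and 5533 in AhCk, and 8564, 10530 and 9468 in AkCk, led by Col3a1 with a mean of 2547 CPM. What part the higher stromal share has in the lower share of tip genes was not tested, since CPM are shares of all counts.

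Lists of cells outside the kidney that use Ret or Sox9 were looked at as well. Of 10 genes of neural crest, chromaffin and enteric neurons, which express Ret, 6 were tested, 2 rose and 4 did not pass, with a median of 1.03. Chgb, at 0.0530 to 0.115 CPM in Wt and thus near the floor there, entered the test only through AkCk, with a mean of 0.920 CPM, so its call rests on that filter and no fold is given. Sox10, of glia, rose by 1.66 (SE 0.36, adjusted p = 0.0263), to 1.25 from 0.396 CPM. The list summed to between 7.37 and 16.1 CPM over the 12 libraries, and no gene of it was at 0 in all libraries. Its most abundant gene, Elavl4 with a mean of 5.33 CPM, went the other way, with a log2 fold change of -1.69 (SE 0.63, adjusted p = 0.111) and lower in 3 of 3 AkCk libraries. Of 7 cartilage genes, 1 rose and 6 did not pass, with a median of -0.25. Comp, at 0.212 to 0.272 CPM in Wt, entered the test only through AkCk, with a mean of 1.345 CPM. Its call therefore rests on the filter on low counts, and no fold is given. Col2a1, the most abundant with a mean of 55.3 CPM and a range of 12.9 to 96.3 CPM, had a log2 fold change of -1.10 (SE 0.44, adjusted p = 0.131), and Sox6 one of 0.16. The list summed to 96.3, 109.1 and 123.0 CPM in Wt and 69.4, 57.6 and 98.9 CPM in AkCk. The part of these cells in the levels of Sox9 was not tested. Of 6 gonad genes, 2 were tested, 0 passed by edgeR and 0 had an unadjusted p below 0.05. These were Dhh and Nr5a1, with log2 fold changes of 0.12 and -0.61, and Foxl2 and Dmrt1 were at or under the floor in all libraries. The gonad list summed to 2.24 to 3.72 CPM.

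Liver and skeletal muscle genes were looked at as tissue carried along in dissection. Of 7 liver genes, 3 rose and 4 did not pass, with a median of 1.56. Alb rose by 3.40 and Ttr by 1.56, with adjusted p of 0.0119 and 0.0125. The higher Alb was not particular to AkCk. Alb was at 7.17, 2.17 and 24.6 CPM in AhCk and 21.4, 16.45 and 0.369 CPM in AkCh, against 0.669 to 1.09 CPM in Wt. Its log2 fold changes against Wt were 3.71 in AhCk and 3.86 in AkCh, and neither passed. Ahsg was at 0.138 to 0.477 CPM in Wt and had a mean of 2.55 CPM in AkCk. It met the filter on low counts only with AkCk libraries counted. Its call rests partly on that filter, so no fold is given. The list summed to 80.3, 91.0 and 48.9 CPM in Wt, 93.7, 103.9 and 146.1 in AkCh, 132.9, 67.9 and 83.8 in AhCk, and 141.8, 149.9 and 72.5 in AkCk, led by Afp with a mean of 82.5 CPM and a log2 fold change of 0.56 (SE 0.31, adjusted p = 0.247). Of 6 muscle genes, 2 rose and 4 did not pass, with a median of 1.62. Myh3 rose by 2.41 (adjusted p = 0.0194), and in AhCk against Wt its log2 fold change was 2.37 (edgeR adjusted p = 0.0656). Myog, at 0.0461 to 0.149 CPM in Wt and thus near the floor there, entered the test only through AkCk, with a mean of 0.846 CPM, so its call rests on that filter and no fold is given. The muscle list summed to at most 12.3 CPM in any library, led by Tnnt3 with a mean of 1.64 CPM. Tnnt3 went the other way, with a log2 fold change of -0.57 (SE 0.30, adjusted p = 0.226) and lower in 3 of 3 AkCk libraries.

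In AkCh against Wt and in AkCk against AkCh, where 0 of all genes passed by edgeR, 0 genes of any list did. Without AkCh_20, 0.0501% of all genes passed in AkCh against Wt and again 0 of the lists. In AkCk against AkCh 4.30% of all genes then passed, and 9 genes of the lists, 6 of them stromal. These were Lum, Dcn, Col1a1, Postn, Col3a1 and Tbx18, which rose by 1.94, 1.69, 1.56, 1.501, 1.24 and 1.21, with adjusted p up to 0.0277. Of the rest, Slco4c1 fell by 0.79 (adjusted p = 0.0352) and Mki67 fell by 0.75 (adjusted p = 0.0195). Comp, the other, was at 0.217 and 0.211 CPM in AkCh_31 and AkCh_33 and entered that test only through AkCk. Its call rests on the filter on low counts, so no fold is given. In AhCk against Wt the genes of these lists that passed, besides Ret, were 3 of the 11 stromal genes. Lum rose by 1.08 (adjusted p = 0.0196), Postn by 0.69 (adjusted p = 0.0376) and Col3a1 by 0.52 (adjusted p = 0.0375). The 9 other tip genes had a median of -0.09 in AhCk against Wt and of -0.44 in AkCk against AkCh, or -0.32 without AkCh_20. Of these 9 genes, 3, 3 and 5 had an unadjusted p below 0.05, against 3349 of 15902, 1787 of 15764 and 3739 of 15986 genes. The 20 lists beside the 8 genes hold 180 genes, 14 of them on more than 1 list, so their counts are not independent.

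Over 28 pairs the median Pearson r of log2 CPM was 0.813, from 0.212 for Sox9 and Wnt9b to 0.972 for Etv4 and Etv5. After each genotype's mean was subtracted the median was 0.687, from -0.50 for Spry1 and Wnt9b to 0.963 for Etv4 and Sox9. Within genotypes Wnt9b had an r of 0.07 with Ret and negative values with the other 6 genes. Without AkCh_20 the median was 0.867 over 11 libraries, from 0.602 to 0.976, and 0.616 within genotypes, from -0.18 for Gfra1 and Wnt9b to 0.960 for Etv4 and Etv5. Wnt9b then had an r of 0.867 with Ret, and of 0.468 within genotypes, so its low value with Ret rested on AkCh_20, while within genotypes its r with the other 6 genes was between -0.18 and 0.17. All these values describe libraries that share genotypes.

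**Figure D4:**
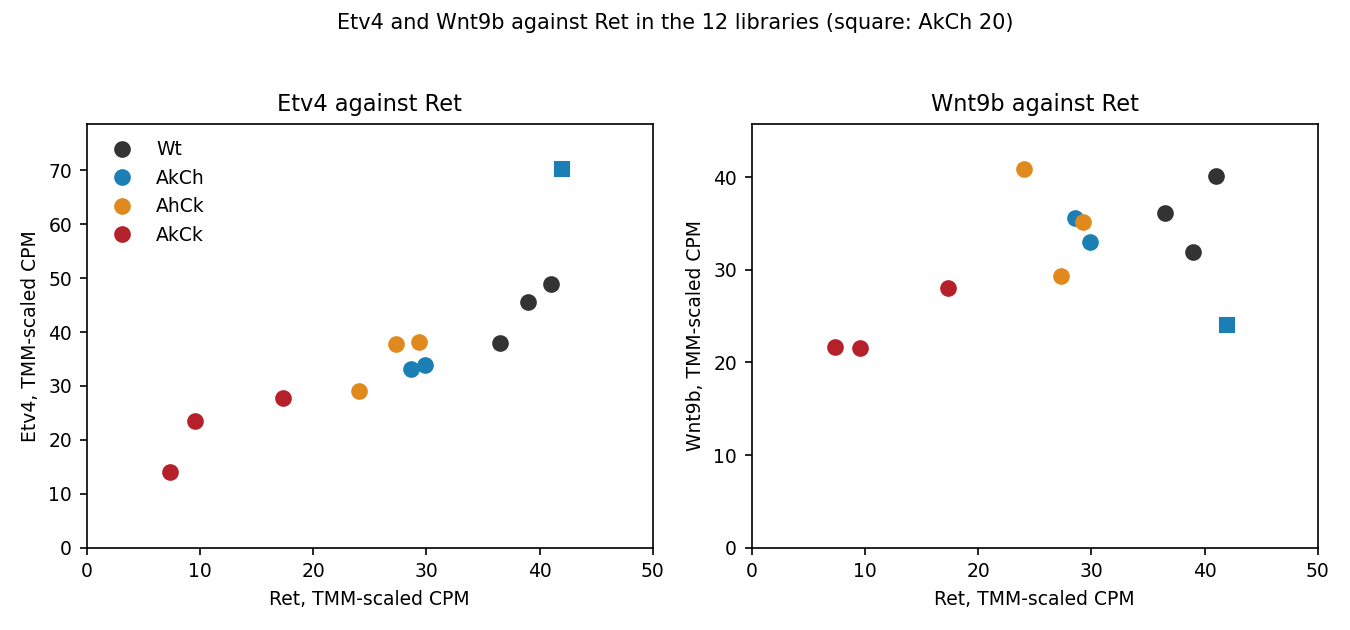
Etv4 (left, vertical axis) and Wnt9b (right, vertical axis) against Ret (horizontal axis) in TMM-scaled CPM, with 1 point for each of the 12 libraries and a square for AkCh_20. Etv4 follows Ret from 14.01 CPM in AkCk_27 to 70.2 CPM in AkCh_20, whereas AkCh_20 joins the highest Ret, 42.0 CPM, with a Wnt9b of 24.03 CPM.

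Among 16252 other genes, those most like Ret over the 12 libraries were Krt23 with an r of 0.968, Cited1 with 0.963, Gdnf with 0.961, Dkc1 with 0.960 and Siglecg with 0.958. Within genotypes their r with Ret was 0.813, 0.948, 0.886, 0.772 and 0.767, and without AkCh_20 it was 0.969, 0.976, 0.976, 0.959 and 0.955, at places 5, 3, 2, 12 and 19 of all these genes. Within genotypes 277, 9, 67, 492 and 515 genes had a higher r with Ret. Mean levels in Wt and AkCk were 9.03 and 3.54 CPM for Krt23, 74.4 and 51.2 CPM for Dkc1 and 1.70 and 0.356 CPM for Siglecg, a direction that the choice by likeness fixes. The genes most like the mean of the 8 standardised profiles were Gdnf with 0.991, Kdm2b with 0.985, Mycn with 0.985, Mybbp1a with 0.984 and Hnrnpdl with 0.983. Within genotypes these were 0.968, 0.929, 0.974, 0.948 and 0.965, and without AkCh_20 they were 0.993, 0.983, 0.995, 0.982 and 0.980, at places 4, 6, 1, 7 and 9. Mycn, a transcription factor of growing progenitors, had a mean of 62.4 CPM in Wt and 31.7 CPM in AkCk.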

How the data were processed

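The authors aligned reads to mm10, removed reads with more than 1 position, and quantified genes with Strand NGS. The authors deposited expected counts per gene, and they were rounded here to whole numbers. The deposited log2 values were normalised and log-transformed by the authors, and served only the limma alternative, as deposited. The 8 genes and the gene lists were chosen by name with earlier results of these data known, and symbols were matched exactly or through an older symbol. Library totals ranged from 28616877 to 47067903 counts. Each of 4 comparisons used its 6 libraries in edgeR 4.0.16 (R 4.3.3): filterByExpr (10 counts, total 15), TMM, quasi-likelihood test, Benjamini-Hochberg adjusted p below 0.05. Alternatives were library size or RLE scaling, DESeq2 1.42.0, limma 3.58.1, all genes, above 10 RPKM in 3 of 12 libraries, all 12 libraries, 9 libraries of 1 run, Xist as a covariate in those 9 (in all 12 for AhCk vs Wt), and each library left out. Overlaps, orders, correlations and list counts without AkCh_20 were chosen after seeing the data. Summaries and figures used Python 3.11.15 and matplotlib 3.10.9. Promoters came from RefSeq on GRCm38.p6, and exon lengths, for RPKM and CPM per kilobase, from GENCODE.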

Additional observations from a re-analysis of the deposited data

How the results depend on the processing

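In AkCk vs Wt, 2171 genes and 5 of the 8 genes passed. The counts were 2391 (742 higher and 1649 lower) and 8 with library size only, 3380 and 8 with DESeq2, 705 and 2 of 5 tested with the RPKM filter (Ret, Sox9 and Wnt9b were not tested), 1190 and 2 with all 12 libraries, 690 and 2 with 9 libraries of 1 run, 1215 and 2 with limma, and 783 and 2 with Xist added to those 9 libraries. Leaving out 1 library gave 535 to 3386 genes and 1 to 7 of the 8.

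In AkCh vs Wt, 0 genes passed with edgeR, 22 with DESeq2, 2 with all 12 libraries, 1 with limma, and 0 to 8 with a library left out. Signs turned for Gfra1 (-0.0756), Etv4 (-0.0537) and Etv5 (-0.0613) with library size only. They turned for Gfra1 with all genes (-0.000985), for Gfra1 (-0.0304) and Etv5 (-0.0115) with the RPKM filter, and for Gfra1 (-0.0143) and Etv4 (-0.0327) with limma. Left-out libraries turned Gfra1 (-0.0575), Etv4 (-0.0459) and Etv5 (-0.0458) for Wt_30, Gfra1 (-0.0506) for Wt_55 and Gfra1 (-0.164) for AkCh_31. With Xist added to 9 libraries, Etv4 went from 0.0512 to 0.435, Etv5 from 0.0271 to 0.207, Spry1 from 0.155 to 0.310, Sox9 from 0.357 to 0.703, Wnt9b from -0.223 to -0.481 and Ret from -0.215 to -0.105. Among left-out libraries the highest values, all without AkCh_33, were 0.164 for Gfra1, 0.238 for Etv4, 0.112 for Etv5, 0.257 for Spry1 and 0.581 for Sox9. Without AkCh_20, Gfra1 (-0.0112), Etv4 (-0.40), Etv5 (-0.113), Spry1 (-0.0656) and Sox9 (-0.0869) turned.

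In AhCk vs Wt, 376 genes and 1 of the 8 passed. The counts were 1318 and 1 with DESeq2, 149 and 0 with all 12 libraries, 134 and 0 with Xist added to those 12, 158 and 0 with limma, and 0 of the 8 with library size only. The RPKM filter tested 5 of the 8, without Ret, and 0 passed. Leaving out 1 library gave 60 to 549 genes and 0 to 1 of the 8. Spry1 turned with all 12 libraries (-0.00183), without Wt_30 (-0.0543) and without AhCk_115 (-0.0948). Sox9 turned without Wt_30 (-0.0775), AhCk_110 (-0.0238) and AhCk_115 (-0.0630), and Wnt9b without Wt_55 (0.0509) and AhCk_115 (0.0833). At the other end of the left-out libraries, without AhCk_38, Spry1 was 0.0620, Sox9 0.110 and Wnt9b -0.162.

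In AkCk vs AkCh, 0 genes passed with edgeR, 554 and 2 of the 8 with DESeq2, 1 with all genes, 540 and 2 with all 12 libraries, 181 with 9 libraries of 1 run, 701 and 1 with Xist added to those 9, 1 with limma, and 0 to 687 genes and 0 of the 8 with a library left out. The cause of these differences was not tested.

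The 10 likeness values, of 9 genes, were lower after genotype means were subtracted, and they moved by at most 0.1 without AkCh_20, an alternative chosen after seeing the data, and the short promoter window held 0 motifs in the 7 promoters. Each group has 3 libraries, whole kidneys mix many cell types, sequencing run follows AhCk, and no Wt library is high in Xist.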
